A study of Mus musculus with 8 samples.

Results

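The genes described here encode titin and the structural proteins of the Z-disc and the M-band of the muscle sarcomere. There are 10 of them: Ttn, Tcap, Ankrd2, Actn2, Actn3, Ldb3, Myoz1, Myom1, Myom2 and Myom3. They were taken by gene symbol from tables of 23115, 28603 and 28748 loci, and all 10 were found in all 3 tables. In the female table each had a row of its own. In the male and KI tables Myoz1 shared 1 row with its neighbour Synpo2l, so 1 of the 10 values there is a merged one that cannot be split.

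RNA was sequenced from mouse myoblasts, muscle precursors derived from satellite cells, after 24 h of differentiation, in 8 libraries. Female KO cells carried a floxed UTX allele (UTX is the histone H3 lysine 27 demethylase encoded by Kdm6a) with Pax7-CreER and Rosa26-Floxed-TdTomato, and female WT cells carried Pax7-CreER and Rosa26-Floxed-TdTomato without the floxed allele. Male KO and male WT cells bear the same names, with no genotype given. Each of these 4 groups was 1 library. The KI and Ctrl-KI groups were female, with 2 libraries each, and the labels do not say which allele they carry. All mice were B6/129, their age is not given, and the protocols describe sorting for the TdTomato reporter and growth in 2.5 µM 4-hydroxytamoxifen, which activates CreER, for KO and WT mice without naming the KI groups. The medium also held 20% serum and 2.5 ng/mL FGF, and the labels list these and the 4-hydroxytamoxifen alike for all 6 groups. The driver Pax7 restricts Cre to satellite cells and their progeny.

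The sarcomere is the contractile unit of muscle. Its thin filaments are anchored at the Z-disc, mainly by alpha-actinin, and its thick filaments are held together at the M-band, mainly by myomesins. Titin is a giant protein that spans from the one to the other and acts as a spring and as a scaffold. These proteins are made when myoblasts stop dividing and differentiate, and the myogenic factors of the MyoD family bind E-boxes and act together with MEF2 factors at many genes of this kind.

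To show what lies before these genes, RefSeq promoter windows (build GRCm38.p6, from 250 bases before to 50 after an annotated start) were searched. Of the 10 genes, 6 had windows, 7 in all: Ttn, Myom3, Actn2, Ldb3 (with 2 starts), Myom1 and Ankrd2. Tcap, Actn3, Myom2 and Myoz1 had none. The 4 printed here are those of titin, of the myomesins with a window and of the stress-responsive Ankrd2, each as the 250 bases before the start, 5′ to 3′ along the gene. Capitals mark matches to the E-box CANNTG, the MEF2 motif, the CArG box (bound by serum response factor) and the MCAT motif CATTCC.
Ttn (chr2:76982548-76982797, minus strand): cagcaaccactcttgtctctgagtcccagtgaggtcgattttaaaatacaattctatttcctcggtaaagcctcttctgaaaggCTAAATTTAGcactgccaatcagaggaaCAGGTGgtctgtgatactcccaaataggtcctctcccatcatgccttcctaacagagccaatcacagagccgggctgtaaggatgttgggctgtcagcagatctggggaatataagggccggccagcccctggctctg
Myom3 (chr4:135759465-135759714, plus strand): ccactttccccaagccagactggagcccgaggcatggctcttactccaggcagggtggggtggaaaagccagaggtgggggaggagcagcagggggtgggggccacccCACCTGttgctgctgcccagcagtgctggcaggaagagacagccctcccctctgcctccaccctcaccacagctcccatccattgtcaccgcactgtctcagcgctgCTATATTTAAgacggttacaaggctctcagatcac
Myom1 (chr17:71019307-71019556, plus strand): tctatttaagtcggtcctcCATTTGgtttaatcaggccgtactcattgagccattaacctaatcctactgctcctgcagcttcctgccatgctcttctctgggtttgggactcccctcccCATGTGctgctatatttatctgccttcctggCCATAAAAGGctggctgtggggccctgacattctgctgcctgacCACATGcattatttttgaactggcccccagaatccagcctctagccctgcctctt
Ankrd2 (chr19:42035777-42036026, plus strand): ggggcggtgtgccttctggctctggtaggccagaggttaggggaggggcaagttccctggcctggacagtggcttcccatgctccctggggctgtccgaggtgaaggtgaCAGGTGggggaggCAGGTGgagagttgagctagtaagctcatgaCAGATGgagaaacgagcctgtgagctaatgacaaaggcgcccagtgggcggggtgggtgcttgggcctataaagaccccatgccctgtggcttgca
Ttn and Myom3 held a match to the MEF2 motif, as did 1.86% of the 32851 RefSeq windows of this length, searched on both strands. Ldb3 and Myom1 held a CArG box, found in 1.63% of all windows. The overlapping Ldb3 windows show the same CArG box from both starts. An E-box CANNTG was found in 5 of the 6 genes, where 72.3% of all windows have one, and the E-box CAGCTG, part of that wider motif, in 0 of 6, against 16.3% of all windows. CATTCC occurred in 1 of the 6, Ttn, after the start, against 14.7% of all windows. In the promoters printed above, the MEF2 match lay at -166 to -157 from the start in Ttn and at -35 to -26 in Myom3, and Ankrd2 had 3 E-boxes between -140 and -91. These are letter matches and not measured binding.

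**Figure D1:**
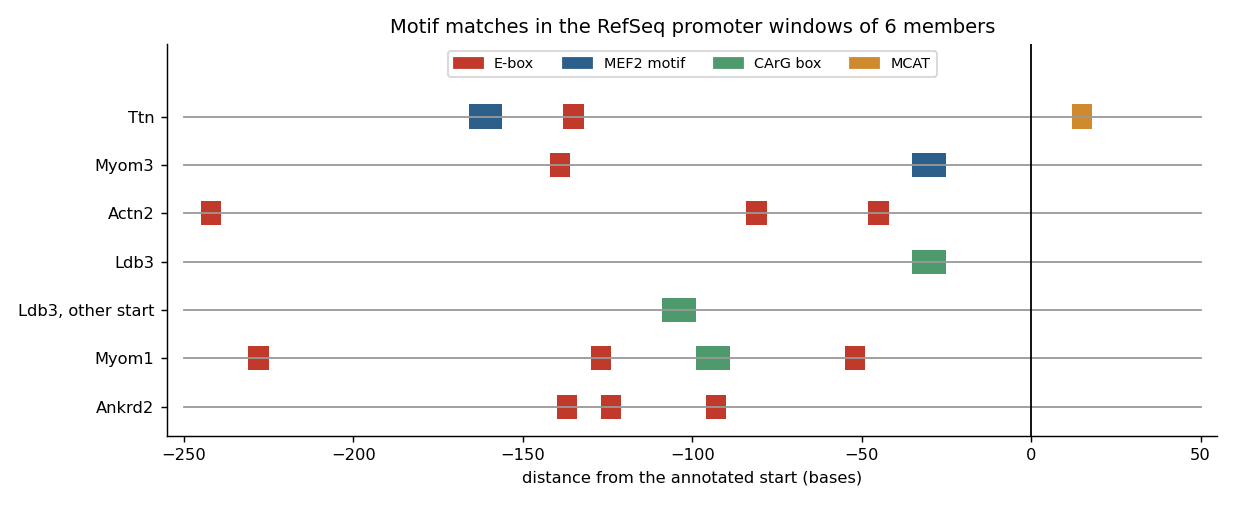
Matches to 4 motifs in the RefSeq promoter windows of 6 genes, by distance in bases from the annotated start (x axis), with 1 line for each window. E-boxes lie in 5 of the 6 genes, the MEF2 motif in Ttn and Myom3, and the CArG box in Ldb3 (both starts) and Myom1.

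Expression was given as FPKM, which divides the fragments of a gene by its length and the size of the library. A lower and an upper confidence bound, of unstated level, came with each value. Each table was estimated separately, with slightly different gene borders, so ratios were formed only within a table, as log2((FPKM + 1)/(FPKM + 1)), mutant over control. No group had replicate values: the female and male columns were 1 library each, and for KI and Ctrl-KI a single pooled number was given. The deposited interval, at a median of 119% of the FPKM in female WT cells, 171% in male WT cells and 40.0% in the Ctrl-KI column, is therefore the only error of a single ratio. Kdm6a itself was 16.9 FPKM in female KO and 20.8 in female WT, 2.08 in male KO and 7.87 in male WT, and 13.2 in KI and 12.8 in Ctrl-KI cells, with overlapping intervals in all 3 tables. FPKM counts the whole gene, exons outside a floxed part included, so the female value neither shows nor refutes the deletion. The labelled cell type was borne out by Myod1, Myog and Des, each at 103.5 FPKM or more in all 6 columns, while 3 cardiac markers (Nppa, Myl7 and Ryr2) summed to under 1 FPKM in every column. Markers of other cell types were not all so low, and their sums are given below.

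The 10 genes were expressed in every column, at between 4.30 and 91.4 FPKM in female KO and between 6.15 and 226 in female WT, between 6.05 and 107 in male KO and between 57.6 and 316 in male WT, and between 41.4 and 219 in KI and between 48.1 and 287 in Ctrl-KI cells. All 10 were over the minimum of 1 FPKM in both columns of each table, so none entered a comparison through 1 group alone. FPKM is scaled by length, so levels of different genes can be set side by side within a column. Alpha-actinins and Ldb3 were among the 4 highest in all 6 columns. The genes of each column were also ranked by FPKM. Of the 9 neighbouring pairs, 0 had intervals that did not overlap in each of the 4 KO and WT columns. In KI cells 1 of 9 did, and in Ctrl-KI cells 2 of 9. Most neighbouring ranks are thus not resolved. Neighbours are the closest pairs, so these counts do not speak to genes further apart in rank.

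**Figure D2:**
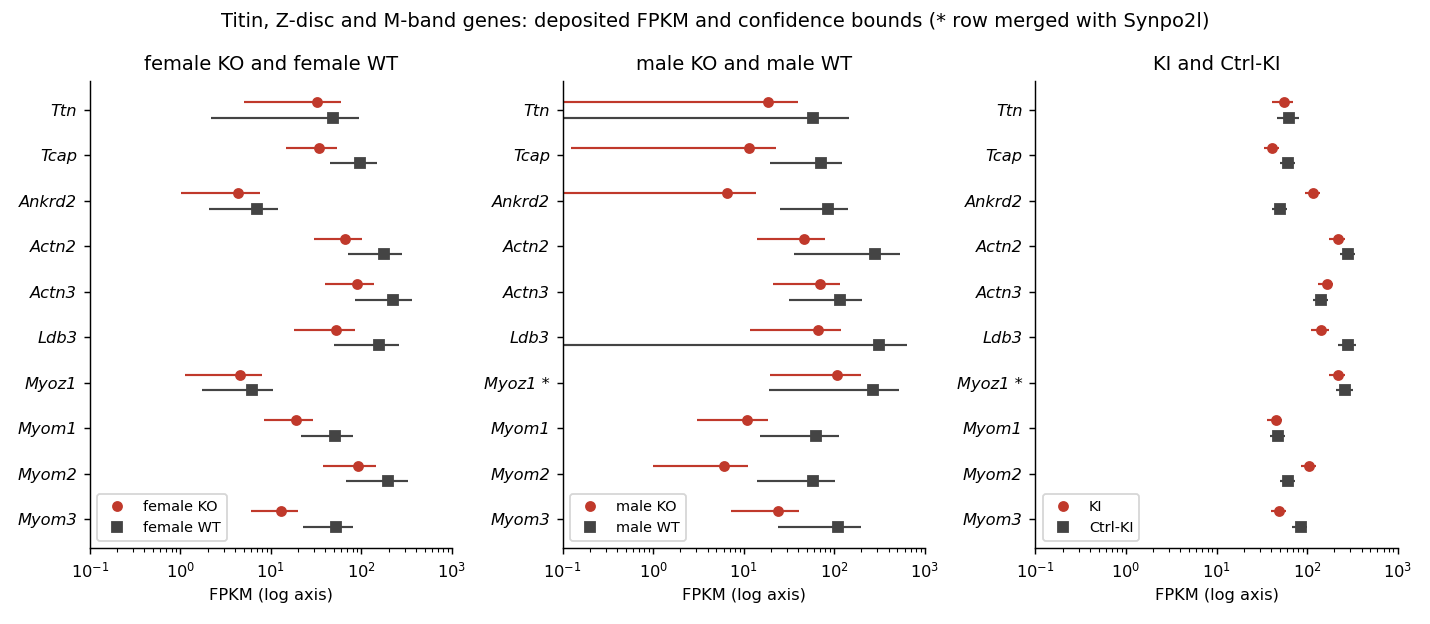
FPKM of the 10 genes (log x axis) in the female, male and KI tables, with mutant cells as red circles above their controls as grey squares. Lines are the deposited confidence bounds, and a line that reaches the left edge has a lower bound of 0 FPKM or below the axis. In male cells the KO values sit left of the WT values for the 9 genes with their own row and for the merged row.

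In UTX knockout myoblasts, all 10 genes had lower values than in WT in females, and all 9 with a row of their own did in males, as did the row that Myoz1 shares with Synpo2l. Of all genes kept (at least 1 FPKM in 1 column), 56.7% of 12344 were below WT in females and 51.6% of 11440 in males. In females a value lower by 2-fold or more was seen for 7 of the 10, against 4.4% of all genes, and one higher by as much for 0 of the 10, against 4.49%. The members had a median log2 ratio of -1.37 in females, and all genes -0.08. In males 9 of 10 were past 2-fold on the lower side, against 6.47% of all genes, and 0 of 10 on the higher side, against 9.9%. The male median was -2.34 for the members and -0.02 for all genes. Without the merged row the male counts were 8 of 9 past 2-fold and a median of -2.43. The deposited intervals of KO and WT were apart for 1 of 10 in females, Myom3 (0.235% of all genes on the lower and 0.664% on the higher side), and for 2 of 10 in males, Ankrd2 and Myom2 (0.262% and 0.603%). In RNA from bulk cultures, fewer differentiated cells and less of these RNAs per cell cannot be told apart.

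Titin and the proteins that bind it had ratios that ranged widely. Ttn, on mm9 chromosome 2 (76542041 to 76820604 in the female table), was 32.3 FPKM in female KO cells, against 48.7 FPKM in female WT cells, with intervals of 4.998 to 59.6 in KO and 2.19 to 95.2 in WT. Male KO cells had 18.7 FPKM and male WT cells 58.3 FPKM, with lower bounds of 0 in both. Ttn was lower in both sexes, with log2 ratios of -0.58 and -1.59, but its female intervals spanned 169% of the KO value and 191% of the WT value, and those of KO and WT overlapped in both sexes. Tcap encodes telethonin, the small cap protein that joins the ends of 2 titin molecules at the Z-disc (chromosome 11, 98245125 to 98246267). It was 34.1 FPKM in female KO and 96.5 FPKM in female WT cells, and 11.4 FPKM in male KO and 70.9 FPKM in male WT cells. Its log2 ratios were -1.47 and -2.54. Of all genes, 109 in the female and 64 in the male table had a lower ratio, against 1977 and 312 for Ttn.

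Ankrd2, an ankyrin-repeat protein that binds the spring region of titin and is induced by stretch in muscle, showed the widest gap between the tables (chromosome 19, 42110528 to 42119600). In males it was 6.48 FPKM in KO and 84.4 FPKM in WT cells, 13.0-fold lower, and its interval of 0 to 13.8 in KO lay below that of 25.2 to 143 in WT. Only 14 of 11440 male genes had a lower ratio than its -3.51. In females it was 4.30 FPKM in KO and 6.98 FPKM in WT cells, a log2 ratio of -0.59, with overlapping intervals. The female WT value was thus close to the values of both KO libraries, although levels in the female and male tables were estimated separately and were not tested against each other.

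Among Z-disc proteins, Actn2, the alpha-actinin of cardiac and all skeletal fibres (chromosome 13, 12361694 to 12432999), was 65.6 FPKM in female KO and 177 FPKM in female WT cells. In males it was 46.6 FPKM in KO and 281 FPKM in WT cells, and the log2 ratios were -1.42 and -2.57. Actn3, the alpha-actinin of fast fibres (chromosome 19, 4861223 to 4877884), was 89.0 FPKM in female KO and 226 FPKM in female WT cells, and 69.1 FPKM in male KO and 117 FPKM in male WT cells. In females the 2 isoforms were lower by like amounts (Actn3 at -1.33), whereas in males Actn3, at -0.76, was the member nearest to its WT value and Actn2 had the third lowest ratio. Ldb3 (ZASP or cypher), a PDZ and LIM protein that binds alpha-actinin (chromosome 14, 35339885 to 35401867), was 51.8 FPKM in female KO and 156 FPKM in female WT cells, and 65.6 FPKM in male KO and 316 FPKM in male WT cells. Its ratios of -1.57 and -2.25 were the second lowest of the 10 in females and the sixth lowest in males.

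Myoz1, or calsarcin-2, which ties calcineurin to alpha-actinin in fast fibres, was measured on its own only in females (chromosome 14, 21468324 to 21475762), at 4.54 FPKM in KO and 6.15 FPKM in WT cells (log2 ratio -0.37). Its neighbour Synpo2l, a Z-disc protein with a PDZ domain, stood at 74.4 FPKM in female KO and 101 FPKM in female WT cells. In males the row of both genes was 107 FPKM in KO and 267 FPKM in WT cells, a log2 ratio of -1.30. In the female table most of what such a joint row would hold thus lay on Synpo2l, and the male and KI values cannot be read as Myoz1.

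The myomesins bridge thick filaments at the M-band, and the one lowest relative to WT was Myom3 in females and Myom2 in males. Myom1, the isoform of all striated muscle (chromosome 17, 71368897 to 71476196), was 18.9 FPKM in female KO and 51.5 FPKM in female WT cells, and 10.9 FPKM in male KO and 63.3 FPKM in male WT cells (log2 ratios -1.40 and -2.43). Myom2, the M-protein of fast fibres (chromosome 8, 15057653 to 15133419), was 91.4 FPKM in female KO and 199 FPKM in female WT cells (-1.12), and 6.05 FPKM in male KO and 57.6 FPKM in male WT cells (-3.06). The male intervals of Myom2, 0.9998 to 11.1 in KO and 14.0 to 101 in WT, were apart. Myom3 (chromosome 4, 135315630 to 135371479), an isoform of intermediate-speed fibres, was 12.9 FPKM in female KO and 52.2 FPKM in female WT cells, 4.03-fold lower, and its interval of 6.03 to 19.9 in KO lay below that of 22.8 to 81.6 in WT. Male cells had 24.0 FPKM in KO and 111 FPKM in WT, and the ratios of -1.93 and -2.16 lay 0.12 on either side of their mean, the smallest gap between the sexes among the 9 members with their own row in both tables.

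**Figure D3:**
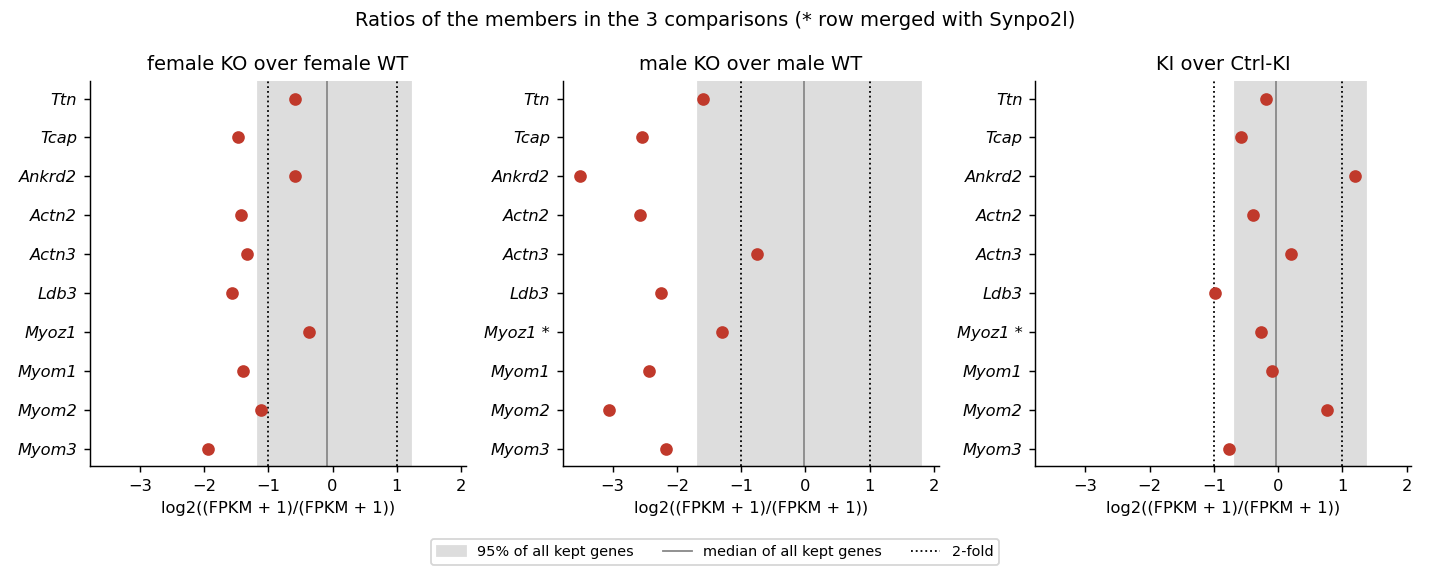
log2 ratios of the 10 genes (x axis) in female KO over WT, male KO over WT and KI over Ctrl-KI cells, with the central 95% of all kept genes in grey, their median as a line and 2-fold as dotted lines. All points lie left of the median line in both KO panels, while Ankrd2 lies right of the 2-fold line in the KI panel.

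Taking each sex as 1 measurement of the knockout effect, the female and male ratios were tested together with limma over 10482 genes present in both tables, which included 9 of the 10 members. Myoz1, merged in one table only, could not enter. The mean log2 ratios (± moderated SE of limma, n = 2 sexes) were -2.05 ± 0.22 for Myom3, -1.91 ± 0.25 for Ldb3, -1.99 ± 0.32 for Actn2, -1.92 ± 0.31 for Myom1 and -2.01 ± 0.31 for Tcap, each with a Benjamini-Hochberg adjusted p of 0.0922 in limma. None of the 9 members passed 0.05, and neither did any of the 10482 genes, so 0% were called in either direction. At unadjusted p under 0.05 limma gave 9 of 9 members lower, beside 10.3% of all genes lower and 9.54% higher. Myom2 (-2.09 ± 0.46, limma adjusted p = 0.113), Actn3 (-1.04 ± 0.24, 0.114), Ttn (-1.08 ± 0.30, 0.146) and Ankrd2 (-2.05 ± 0.66, 0.181) had wider errors or smaller ratios, and in Ankrd2 the sexes lay 1.46 on either side of the mean. The call depended on the filter. With genes kept from 5 FPKM in 1 column, 7732 genes were tested, 5 of the 9 members (Myom3, Ldb3, Myom1, Tcap and Actn2) passed in limma with adjusted p from 0.0414 to 0.0485, and 1.14% of all genes were called lower. Nothing says that the libraries came from separate animals, so these p-values cannot be read as measuring spread between animals. They rest on each gene's pair of ratios (1 residual degree of freedom) and on a variance that limma borrows from all genes. Among the 9 members the moderated SE was smaller than the distance of each sex from the mean, except in Myom3 (0.22 against 0.12). In Ankrd2 the moderated SE was 0.66, against a distance of 1.46. The difference between the sexes could not be tested with 1 library per group.

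Sums over markers of other cell states also differed between KO and WT cells. Dividing or undifferentiated myoblast markers (Pax7, Myf5, Mki67, Top2a, Ccnb1 and Birc5) summed to 63.4 FPKM in female KO and 35.1 in female WT cells. In males they summed to 79.9 in KO and 20.3 in WT cells. At least 2-fold higher were 3 of 6 in females (Mki67, Top2a and Ccnb1) and 5 of 6 in males. Myf5 was lower in both sexes: 7.69 FPKM in female KO, 12.5 in female WT, 3.17 in male KO and 5.38 in male WT cells. Pax7 was 5.54 FPKM in female KO and 4.33 in female WT cells. Myog was 817 FPKM in female KO and 1305 in female WT cells and 961 in male KO and 3424 in male WT cells, and Mef2c was 33.5 FPKM in female KO and 66.4 in female WT cells and 25.4 in male KO and 168 in male WT cells. The 6 differentiating myoblast markers (Myod1, Myog, Des, Mef2c, Tmem8c and Acta1) summed to 2627 FPKM in female KO and 6028 in female WT cells, with 3 at least 2-fold lower, and to 3495 in male KO and 12503 in male WT cells, with 4 lower. The 7 fibro-adipogenic markers summed to 552 FPKM in female KO and 228 in female WT cells, with 3 at least 2-fold higher. In males they summed to 66.3 in KO and 18.2 in WT cells, with 2 higher and Lum listed at 0 in both columns. Most of the male sums was Col3a1, at 59.1 FPKM in KO and 16.4 in WT cells. The 7 endothelial markers summed to 26.3 FPKM in female KO and 14.5 in female WT cells, with 0 at least 2-fold higher. In males they summed to 56.8 in KO and 0.182 in WT cells, with 3 higher and Tie1 listed at 0 in WT. Most of the male KO sum was Emcn (40.6 FPKM) and Cdh5 (12.3 FPKM). Kdr, Flt1, Tek and Tie1 were each below 1 FPKM in both male columns. Immune markers with a row of their own summed to 15.1 FPKM in female KO and 8.08 in female WT cells (5 genes, Ptprc and Emr1 listed at 0 in WT). In males they summed to 8.20 in KO and 0.704 in WT cells (4 genes). Most of the female sums was Cd68, at 11.5 FPKM in KO and 7.25 in WT cells. Lyz2 held most of the male sums, at 7.94 FPKM in KO and 0.681 in WT cells. Pericyte and smooth muscle markers, led by Acta2, which differentiating myoblasts also express, summed to 344 FPKM in female KO and 680 in female WT cells and to 731 in male KO and 2003 in male WT cells, with 1 of 5 at least 2-fold higher and 1 lower in each sex. Without Acta2 the other 4 went the other way, at 31.3 FPKM in female KO and 17.4 in female WT cells and 7.55 in male KO and 3.01 in male WT cells. The part of these cell states in the lower sarcomere values was not tested.

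The KI comparison gave another pattern, with members on both sides of the control and narrower intervals. Of the 10 genes, 7 were below Ctrl-KI (6 of 9 without the merged row), as were 57.4% of all 11084 genes. None was past 2-fold on the lower side (0.893% of all genes), and 1 was on the higher side, Ankrd2 (3.86% of all genes). The median log2 ratio of the 10 was -0.23 (-0.19 without the merged row), against -0.04 over all genes. Deposited intervals were apart on the lower side for 3 of 10 (3.73% of all genes) and on the higher side for 2 of 10 (8.27% of all genes). These directions rest on the scaling in part. Values were rescaled to TPM (FPKM set to one common sum per library) over all loci. Loci with no symbol took 77.6% of all FPKM in KI and 57.1% in Ctrl-KI cells. The median log2 ratio of all genes was then -0.77 in place of -0.04 (-0.70 in males and 0.10 in females). Of the 10 members, 6 lay 2-fold or more below Ctrl-KI, as did 1685 of all 10717 genes. On the higher side were 0 members and 196 of all genes. Actn3 and Myom2 changed sign.

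Ankrd2 was 116 FPKM in KI and 50.3 FPKM in Ctrl-KI cells, with intervals of 94.4 to 138 in KI and 40.9 to 59.8 in Ctrl-KI cells that were apart (log2 ratio 1.19, and 0.37 as TPM over all loci). Myom2 was 105 FPKM in KI and 61.4 FPKM in Ctrl-KI cells, also with intervals apart (0.76, but -0.06 as TPM over all loci). These 2 genes had the highest ratios of the 10 in the KI comparison and the lowest in the male KO comparison. The comparisons share no libraries, and whether their opposite signs exceed the spread between libraries could not be tested.

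On the lower side, Ldb3 was 142 FPKM in KI and 283 FPKM in Ctrl-KI cells, with intervals of 111 to 174 in KI and 220 to 346 in Ctrl-KI cells and a log2 ratio of -0.99, just inside the 2-fold limit. Myom3 was 49.5 FPKM in KI and 84.7 FPKM in Ctrl-KI cells (-0.76), and Tcap 41.4 FPKM in KI and 62.3 FPKM in Ctrl-KI cells (-0.58), each with intervals apart. Ldb3, Myom3 and Tcap kept their lower direction under the median-centred and both TPM scalings. The remaining 5 had overlapping intervals: Actn2 at 219 FPKM in KI and 287 in Ctrl-KI cells, the Myoz1 and Synpo2l row at 219 and 265, Ttn at 55.7 and 63.7, Myom1 at 45.0 and 48.1 (a ratio of -0.09, and 0.00 as TPM over loci with a symbol) and Actn3 at 164 and 143 (0.20, but -0.63 as TPM over all loci), the KI value first in each. Actn2, Ttn and the row of Myoz1 and Synpo2l also stayed lower under the median-centred and both TPM scalings. Beside these KI values, fibro-adipogenic markers summed to 305 FPKM in KI and 9.63 in Ctrl-KI cells, with 5 of 7 at least 2-fold higher. Lum was listed at 0 in Ctrl-KI cells, and Col1a1 was 158 FPKM in KI and 0.515 in Ctrl-KI cells. The immune markers with a row of their own (4) summed to 32.2 FPKM in KI and 0.293 in Ctrl-KI cells. Most of these sums was Lyz2, at 31.0 FPKM in KI and 0.282 in Ctrl-KI cells. The 7 endothelial markers summed to 1.71 FPKM in KI and 0.163 in Ctrl-KI cells, with Tie1 and Emcn listed at 0 in Ctrl-KI cells. Of these 7, 0 reached 1 FPKM in either column. The differentiating myoblast markers summed to 9145 FPKM in KI and 10788 in Ctrl-KI cells, and the dividing or undifferentiated ones with a row of their own (5) to 17.7 in KI and 13.6 in Ctrl-KI cells. Pericyte and smooth muscle markers summed to 1854 FPKM in KI and 2292 in Ctrl-KI cells, with 2 of 5 at least 2-fold higher and 0 lower. Without Acta2 the other 4 summed to 34.5 FPKM in KI and 2.22 in Ctrl-KI cells, and Pdgfrb was 26.7 FPKM in KI and 0.442 in Ctrl-KI cells with intervals apart. Their part in the KI pattern was not tested.

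Muscle alpha-actinins (Actn2 and Actn3) made up 43.5% of the alpha-actinin FPKM in female KO and 66.0% in female WT cells, 25.8% in male KO and 57.0% in male WT cells, and 53.4% in KI and 59.6% in Ctrl-KI cells. The rest was Actn1 and Actn4, the non-muscle alpha-actinins of stress fibres and adhesions, which summed to 201 FPKM in female KO and 207 in female WT cells, 333 in male KO and 300.2 in male WT cells, and 334 in KI and 291 in Ctrl-KI cells. As TPM over all loci this non-muscle sum was 1.56-fold lower in male KO than in male WT cells and 1.55-fold lower in KI than in Ctrl-KI cells, so its direction depends on the scaling. The Actn3 to Actn2 ratio was 1.36 in female KO and 1.28 in female WT cells, 1.48 in male KO and 0.417 in male WT cells, and 0.750 in KI and 0.499 in Ctrl-KI cells. Such ratios within a column do not depend on the scaling of the library.

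The myomesins summed to 123 FPKM in female KO and 303 in female WT cells, 41.0 in male KO and 232 in male WT cells, and 199 in KI and 194 in Ctrl-KI cells. Myom2 supplied 74.2% of this sum in female KO and 65.8% in female WT cells, 14.8% in male KO and 24.8% in male WT cells, and 52.6% in KI and 31.6% in Ctrl-KI cells. Myom3 supplied 10.5% in female KO and 17.2% in female WT cells, 58.6% in male KO and 47.8% in male WT cells, and 24.8% in KI and 43.6% in Ctrl-KI cells. In the KI and the female KO comparison Myom2 took a larger and Myom3 a smaller share of the sum than in the control. In the male KO comparison the reverse was seen. How the sums compare depends on the scaling: as TPM over all loci the myomesins summed to 105 in KI and 182 in Ctrl-KI cells, 1.74-fold lower. The share of Myom1 stayed between 15.3% (female KO) and 27.3% (male WT) in all 6 columns.

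**Figure D4:**
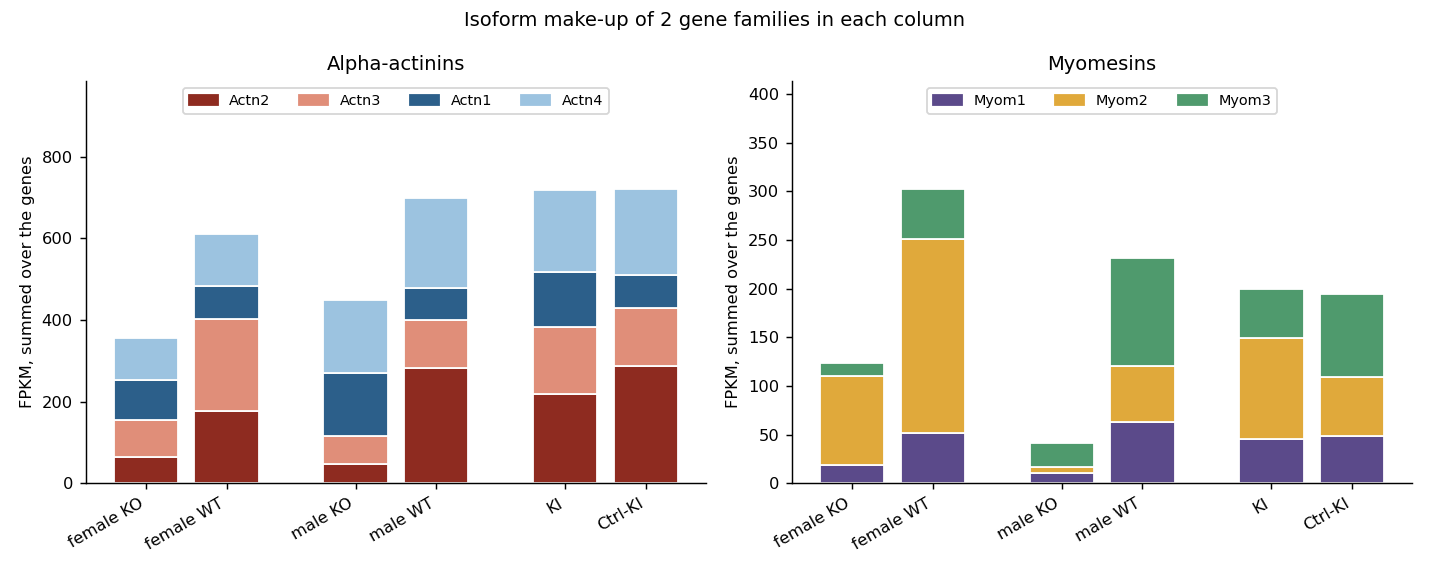
FPKM of the alpha-actinins (left) and myomesins (right), stacked by gene, in the 6 columns, with each mutant left of its control. The bars show sums of 123 FPKM in female KO against 303 in female WT and 41.0 in male KO against 232 in male WT for the myomesins, and for KI a larger share of Myom2 than in Ctrl-KI cells (52.6% against 31.6%). Bar heights are FPKM as deposited, and with TPM over all loci the KI myomesin sum is 1.74-fold lower than that of Ctrl-KI.

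Other genes of the Z-disc, M-band and titin-binding group were taken from a list of 41. Of these, 39 were kept in the female table, 38 in the male and 37 in the KI table, the last 2 without the row of Myoz1 and Synpo2l. Other merged rows stayed in: Ankrd23 with Ankrd39 and Murc with Tmeff1 in the male and KI tables, and Ppp3cb with Zmynd17 in the KI table. In female KO cells 14 of the 39 lay 2-fold or more below WT (4.4% of all genes) and 1 lay as far above (4.49%). The median log2 ratio was -0.75. In male KO cells 24 of 38 lay 2-fold or more below WT (6.47% of all genes) and 1 above (9.9%), and the median was -1.32. In KI cells 0 of 37 lay so far below Ctrl-KI (0.893% of all genes) and 2 above (3.86%), and the median was -0.16. The members' medians of -1.37, -2.34 and -0.23 lay below these in all 3, the KI one narrowly without the merged row (-0.19). The list was mixed, and some of its genes lay below the members' medians. Unc45b was at -1.49 in females and -2.90 in males, and Capn3 at -1.71 and -2.68. Others of the list lay near or above WT, with Capza1 at 0.14 and 0.03 and Sqstm1 at 0.53 and 0.89. In limma across the sexes 22 of 36 were lower (10.3% of all genes) and 2 higher (9.54%) at unadjusted p under 0.05. In the same limma fit 0 passed the adjusted threshold (smallest adjusted p = 0.0922).

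At the low end of that list stood Capn3 in females, the muscle calpain that binds titin (13.5 FPKM in KO and 46.3 FPKM in WT cells, log2 ratio -1.71), and Csrp3 in males, the Z-disc LIM protein MLP (11.4 FPKM in KO and 99.3 FPKM in WT cells, -3.02, intervals apart). At the high end stood Fhl2 in males, a LIM protein with roles in titin binding and in transcription (64.4 FPKM in KO and 24.7 FPKM in WT cells, log2 ratio 1.34). It was also higher in females, at 33.2 FPKM in KO and 16.8 FPKM in WT cells (0.94), and in KI cells, at 56.4 FPKM against 19.0 FPKM in Ctrl-KI cells (1.52, intervals apart). Xirp2, an actin-binding protein of the Xin family, was the highest in females, at 33.2 FPKM in KO and 15.4 FPKM in WT cells (1.06), and in the KI table, at 18.7 FPKM in KI and 4.02 FPKM in Ctrl-KI cells (1.97, intervals apart). Ankrd1, the relative of Ankrd2 that also binds the titin spring, was the lowest in the KI table, at 279 FPKM in KI and 466 FPKM in Ctrl-KI cells (-0.74, intervals apart). Ankrd1 and Ankrd2 thus lay on opposite sides of the control in KI cells, with intervals apart for both.

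Of the 4 non-muscle counterparts, 3 lay above WT and 1 below it in both sexes. Actn1 was 97.5 FPKM in female KO and 80.8 FPKM in female WT cells, and 154 FPKM in male KO and 79.1 FPKM in male WT cells (log2 ratios 0.27 and 0.95). Pdlim1, a PDZ and LIM protein of stress fibres, was at 0.53 and 0.79 and Zyx, the adhesion protein zyxin, at 0.30 and 0.91, while Actn4 was at -0.29 and -0.30. None of the 4 was 2-fold different in any table. In KI cells Actn1 (133 FPKM in KI and 79.3 FPKM in Ctrl-KI cells) and Pdlim1 (36.3 FPKM in KI and 23.0 FPKM in Ctrl-KI cells) had intervals apart on the higher side, a direction that turned round for both with TPM over all loci (-0.08 and -0.17).

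**Figure D5:**
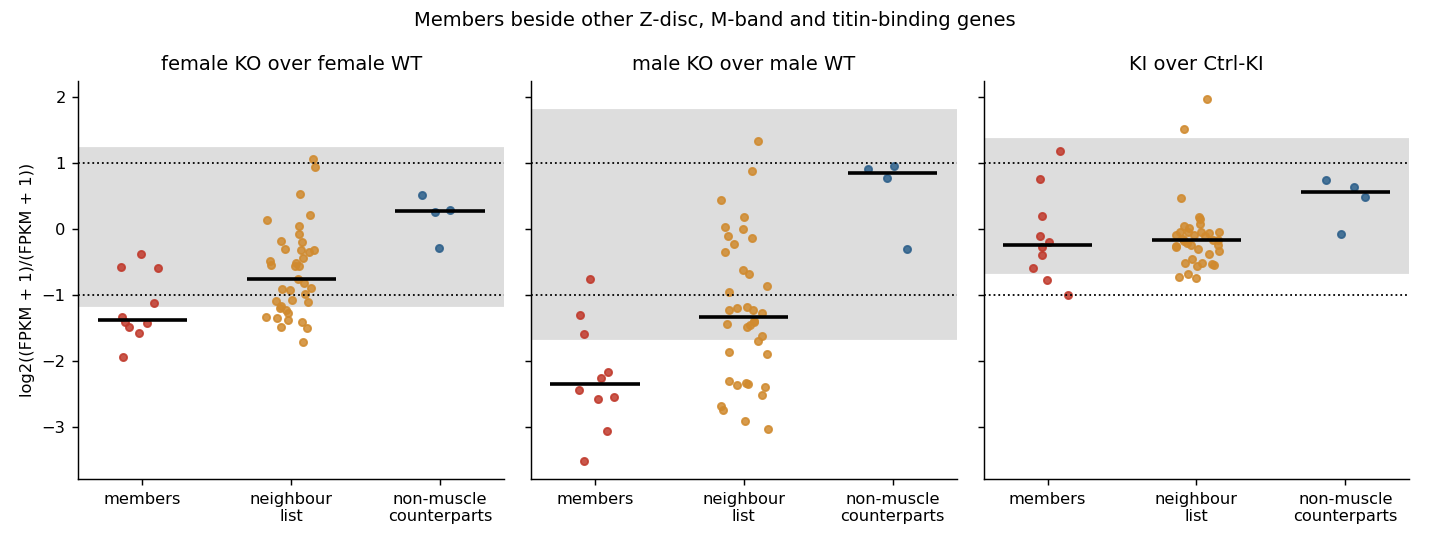
log2 ratios (y axis) of the 10 members, of the other Z-disc, M-band and titin-binding genes and of 4 non-muscle counterparts in the 3 comparisons, with black bars at the medians, the central 95% of all kept genes in grey and 2-fold as dotted lines. The members' medians of -1.37 in female and -2.34 in male KO cells lie below those of the other list, -0.75 and -1.32, and the counterparts' medians are above 0, as they are not in KI cells with TPM over all loci. Points of the other list lie on both sides of the members' medians.

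The genes whose pattern was most like the members were found by the distance between their 3 log2 ratios (female KO, male KO and KI) and the members' medians of -1.37, -2.34 and -0.23, among 7058 unmerged genes with at least 5 FPKM in 1 column of each table. The male and KI medians include the row of Myoz1 and Synpo2l and were -2.43 and -0.19 without it. Distances were not taken again without that row. The nearest were 4930429F24Rik (distance 0.10), Mypn (0.11), Myl4 (0.16), Smpx (0.19) and Tmem8c (0.21). Mypn encodes myopalladin, a Z-disc protein that binds nebulin and alpha-actinin, and was at -1.27, -2.30 and -0.24. Myl4 is the embryonic and atrial essential myosin light chain (-1.31, -2.49 and -0.20), Smpx is a small muscle protein of the costamere (-1.31, -2.49 and -0.34), and Tmem8c is the fusion protein myomaker (-1.38, -2.37 and -0.02). Likeness over 3 ratios describes these libraries only.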

How the data were processed

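RNA of 8 libraries was assigned to 6 groups by their titles. FPKM values, their confidence bounds and a status were deposited by the authors for 2 groups in each of 3 tables, in a Cufflinks or Cuffdiff tracking layout per the file headers. The KI table has 1 pooled column per group. TopHat2 2.0.12, Bowtie2 2.2.4, Cuffdiff and Cufflinks 2.2.1 are named in the submitters' processing notes beside other tools, without a role, as is the build mm9. Annotation, strand setting and scaling between libraries are not given in the sources used here. Overlapping genes therefore cannot be separated by strand. The sequencing depth cannot be had from FPKM. The most frequent ratio of values under 0.3 FPKM, which move in steps of single reads, was 0.660 in the female, 0.986 in the male and 0.835 in the KI table, mutant over control.

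Members were found by symbol, alone or in a merged row. Genes with a symbol, status OK in both columns and at least 1 FPKM in 1 column were kept, and the ratio used a pseudocount of 1 FPKM, which understates changes of low genes. The sexes were combined with limma 3.58.1 (R 4.3.3, mean-variance trend, 1 residual degree of freedom, Benjamini-Hochberg over all genes), tested on simulated data. Members and lists were chosen with earlier results of these data known. Named are the members, the extremes of the neighbour list and its non-muscle counterparts, Kdm6a, Myog, Mef2c and the 5 nearest patterns; other names were chosen after their values were seen. Locus starts are printed 1 higher than in the files, taken as counted from 0. Promoters are RefSeq sequences of GRCm38.p6, not mm9. Alternatives were pseudocounts of 0.1 and 5 FPKM, other filters, median-centring, TPM, intervals, every status, no trend, and KI as a further value. Python 3.11.15 and pandas 2.3.3 were used.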

Additional observations from a re-analysis of the deposited data

Results flagged for a closer look

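Among the named genes, 2 of the neighbour list lay on opposite sides of WT in the knockout of the 2 sexes. With 1 library per group this difference was not tested. Xirp2 had a log2 ratio of 1.06 in females (33.2 FPKM in KO and 15.4 FPKM in WT cells) and -1.38 in males (1.33 FPKM in KO and 5.07 FPKM in WT cells), with overlapping deposited intervals in both. Ankrd1 had -0.17 in females (253 FPKM in KO and 285.0 FPKM in WT cells) and 0.44 in males (1008 FPKM in KO and 741 FPKM in WT cells), where the intervals overlapped too, and its sign turned round with TPM over all loci in both sexes (0.01 and -0.35). None of the 10 members was flagged in this way.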

How the results depend on the processing

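The members, the merged male row included, stayed lower in both KO comparisons under every alternative scaling, filter and pseudocount run, with 6 to 7 at least 2-fold lower in females and 9 to 10 in males. The 6 in females came with TPM, where 427 of 13594 genes were 2-fold lower. The 10 in males came with TPM over all loci, where 2520 of 10238 genes were 2-fold lower. By non-overlapping deposited intervals the counts of lower members were 1 in females, 2 in males and 3 in the KI table, where 2 were higher; over all genes, lower and higher, the intervals gave 29 and 82, 30 and 69, and 413 and 917. As reported, those past 2-fold were 543 and 554 for females, 740 and 1132 for males, 99 and 428 for KI. A pseudocount of 5 FPKM gave 246 and 196, 475 and 443, and 47 and 177, and a pseudocount of 0.1 FPKM gave 938 higher in females and 168 lower in the KI table. TPM over all loci gave 1197 of 13594 genes higher in females, and 2520 lower and 253 higher of 10238 in males. For KI it gave 1685 lower and 196 higher of 10717, where 6 members were then 2-fold lower and 0 higher. TPM over loci with a symbol gave 1197, 1821 and 680 higher genes. The KI table had 262 higher genes among those kept from 5 FPKM. The share of higher calls was 50.5% in females, 60.5% in males and 81.2% in the KI table, and 73.7%, 9.12% and 10.4% with TPM over all loci; median-centring gave 63.2% in females, a pseudocount of 5 FPKM 48.3% in males and TPM over loci with a symbol 72.2% in males.

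In limma across the sexes, 0 members and 0 genes passed as reported. Genes kept from 5 FPKM gave 5 members, 88 lower and 42 higher genes, with fewer genes tested. TPM over all loci gave 1 member, Ankrd2, with 93 lower and 54 higher genes, and the cause was not tested. In that limma fit the smallest adjusted p over all genes was 8.8e-28, against 0.00737 or more under the other alternatives. Its call therefore cannot be set beside theirs. As reported, Ankrd2 was the member whose sexes lay furthest apart, 1.46 on either side of the mean. A pseudocount of 0.1 FPKM and TPM over loci with a symbol each gave 1 higher gene. The smallest limma adjusted p among members ranged from 0.00947 to 0.293 over the alternatives, and from 0.0414 without TPM over all loci. No paired analysis was possible because the KI table, the one table whose groups share replicate numbers in the labels, holds 1 pooled value per group. The limma test itself works on ratios formed within each sex. Leaving out a library was not possible with 1 value per group.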
